A study of Mus musculus with 12 samples.

Results

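Cyp2b9 (gene 13094), Cyp2b10 (gene 13088) and Cyp2b13 (gene 13089) are members of the Cyp2b subfamily of cytochrome P450 enzymes. They were found by their symbols and are 3 of the 16239 named genes measured in mouse liver. They were selected on their FPKM and counts in these 12 libraries, which earlier results had shown to differ between the groups, so their levels and fold changes are given as a description, and nothing is drawn from a test of them. The study sequenced RNA from whole livers of mice of strain 129/B6, 10 months old, after 8 months on 1 of 2 diets abbreviated HF and LF in the labels. It asked what thrombospondin 1 (TSP1, encoded by Thbs1) made by macrophages does in the fatty liver disease that comes with obesity. There were 12 libraries in 4 groups of 3. HF knockout mice lacked TSP1 in macrophages and were fed HF, HF floxed mice carried the floxed TSP1 gene and were fed HF, LF knockout mice lacked TSP1 in macrophages and were fed LF, and LF floxed mice carried the floxed gene and were fed LF. The floxed mice are also labelled WT. The labels used here do not name the Cre driver, and they give replicate numbers without naming animals, so that p-values measure only the spread between these libraries, which may be technical.

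Cytochrome P450 enzymes of the Cyp2b subfamily sit in the endoplasmic reticulum of hepatocytes and oxidise drugs, steroids and fatty acids. Cyp2b10 is the textbook target of CAR (encoded by Nr1i3), a nuclear receptor that is held in the cytoplasm until drugs such as phenobarbital release it to the nucleus, where it binds DNA with the retinoid X receptor. The related receptor PXR (Nr1i2) acts on many of the same genes. Cyp2b9 and Cyp2b13 are known as female-biased genes of mouse liver, kept low in adult males by the pulsed pattern of growth hormone that STAT5b (Stat5b) relays. Cyp2b9 has also been described as a gene that is higher in fatty liver.

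The 3 genes are near copies of one another, which bears on every value below because reads from shared stretches can be assigned to either gene. The first 90 bases of the coding sequence show how close they are. They are given here 5′ to 3′ from the GENCODE M21 transcripts, with capitals where a base differs from Cyp2b9.
Cyp2b9: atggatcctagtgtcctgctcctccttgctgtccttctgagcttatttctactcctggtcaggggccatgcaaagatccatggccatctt
Cyp2b13: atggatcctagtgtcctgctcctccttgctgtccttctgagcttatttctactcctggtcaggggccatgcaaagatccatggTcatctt
Cyp2b10: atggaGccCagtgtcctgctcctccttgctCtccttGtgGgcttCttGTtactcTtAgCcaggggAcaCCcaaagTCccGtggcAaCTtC
In this stretch Cyp2b13 differed from Cyp2b9 at 1 base and Cyp2b10 differed at 21. Over the aligned coding sequence Cyp2b13 was 92.74% identical to Cyp2b9 (107 bases differed), and Cyp2b10 was 87.78% identical to Cyp2b9 (180 bases differed) and 88.66% to Cyp2b13 (167 bases differed). The longest run of bases shared without a difference in the transcripts was 113 between Cyp2b9 and Cyp2b13, 86 between Cyp2b10 and Cyp2b13, and 55 between Cyp2b9 and Cyp2b10. Of all stretches of 50 bases in the transcript, 27.27% in Cyp2b13, 11.17% in Cyp2b9 and 10.21% in Cyp2b10 also occurred in a transcript of another gene. For stretches of 100 bases the shares were 9.291, 1.182 and 0% in the same order of genes. Not all of this sharing was among the 3 members. Of the 50-base stretches of Cyp2b13, 10.84% occurred in Cyp2b9 and 7.996% in Cyp2b10, and Cyp2b19, Cyp2b23 and Gm45225 also shared some. Of its 100-base stretches, 1.182% occurred in Cyp2b9 and 0% in Cyp2b10, and the other gene that shared some was Gm45225. These figures rest on a single GENCODE M21 transcript per gene, which for Cyp2b9 has 1876 bases. The deposited values cover 5 transcripts of Cyp2b9, 4 of them unnamed, with lengths of 2398.3 to 3205.4 bases in LF floxed libraries. For Cyp2b13 they cover 2, of which 1 is unnamed. How far the shares hold for those transcripts was not tested. The read length is not given in the sources used here, so the share of reads that could be placed on a single gene is unknown.

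**Figure D1:**
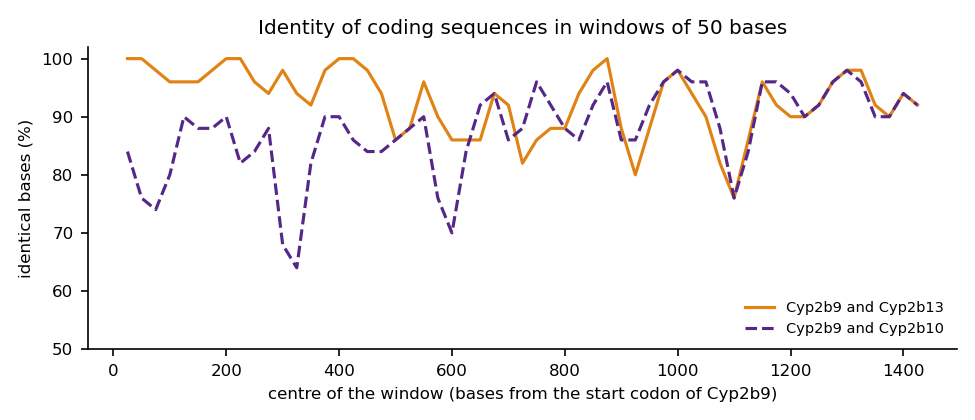
Identity of the coding sequence of Cyp2b9 with those of Cyp2b13 (solid line) and Cyp2b10 (dashed line), in percent, in windows of 50 bases placed every 25 bases, against the distance of the window's centre from the start codon of Cyp2b9. The lines lie far apart in the first windows, where Cyp2b13 is identical to Cyp2b9, and close together near the end.

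Upstream of the gene start the likeness of Cyp2b9 and Cyp2b13 was closer still. A link between upstream sequence and the levels of the genes was not tested. The 250 bases before each start are printed below. They come from the RefSeq promoter table of build GRCm38.p6, in which all 3 genes were found, and capitals mark AGGTCA, the core motif that nuclear receptors such as CAR and PXR bind.
Cyp2b9 (chr7:26173159-26173408, + strand): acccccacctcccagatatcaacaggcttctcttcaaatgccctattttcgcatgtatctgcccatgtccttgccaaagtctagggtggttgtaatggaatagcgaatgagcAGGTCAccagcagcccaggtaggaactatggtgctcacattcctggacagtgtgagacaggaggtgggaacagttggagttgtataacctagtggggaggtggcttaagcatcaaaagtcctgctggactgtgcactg
Cyp2b13 (chr7:26061245-26061494, + strand): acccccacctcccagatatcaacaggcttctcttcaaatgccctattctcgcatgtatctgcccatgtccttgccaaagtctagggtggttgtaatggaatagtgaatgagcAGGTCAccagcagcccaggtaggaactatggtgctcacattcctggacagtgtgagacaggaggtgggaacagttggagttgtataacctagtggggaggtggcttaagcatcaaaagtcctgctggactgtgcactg
Cyp2b10 (chr7:25897408-25897657, + strand): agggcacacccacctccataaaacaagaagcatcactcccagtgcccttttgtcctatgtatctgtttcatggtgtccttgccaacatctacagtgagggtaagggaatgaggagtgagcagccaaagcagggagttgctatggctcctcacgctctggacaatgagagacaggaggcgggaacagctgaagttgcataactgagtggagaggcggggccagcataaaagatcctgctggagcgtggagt
The windows of Cyp2b9 and Cyp2b13 were 99.2% identical and differed at 2 bases, T48C and C104T, with the Cyp2b9 base first and positions counted from 1 at the start of the window. Cyp2b10 was 74.58% identical to Cyp2b9 over 240 aligned bases, with 61 differences. AGGTCA or its reverse TGACCT occurred 1 time in the windows of Cyp2b9 and of Cyp2b13, at position -138 from the start, and was not found in that of Cyp2b10. It occurred in 14.02% of the 32851 promoter windows in the table. The STAT5 motif TTCNNNGAA, which reads the same on both strands, was not found in any of the 3 windows and occurred in 7.02% of all windows. These windows do not reach distant enhancers, and a match of letters is not a measured site.

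The libraries held 16131506 to 16536016 estimated counts each, of which 13336969 to 15080378 fell on named genes. The markers of hepatocytes were present in every library, as were 4 genes of the Y chromosome (Eif2s3y, Uty, Kdm5d and Ddx3y). Thbs1 was at 0.16, 1.42 and 1.63 FPKM (fragments per kilobase of gene length, scaled to depth) in HF knockout and 0.75, 0.75 and 0.31 in HF floxed libraries, and at 0.08, 0.55 and 0.55 in LF knockout and 0.11, 0.06 and 0.07 in LF floxed libraries. It was thus not lower in the libraries labelled knockout, and directions between genotypes rest on the labels. LF knockout 2 and 3 were nearly the same library by their counts (chi-square per degree of freedom 2.814) and so were HF floxed 1 and 2 (8.538), against 47.78 to 499.9 for the other pairs within a group. LF knockout 1 was closer to LF floxed 2 (28.46) than to LF knockout 2 and 3 (96.15 and 93.69). HF knockout 2 stood apart as well, with Cyp2e1, a hepatocyte P450, at 27.51 FPKM against 1677 to 4868 in the other libraries. HF floxed 3 was closer to LF knockout 2 and 3 (46.67 and 49.17) than to HF floxed 1 and 2 (172.5 and 172.9).

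Cyp2b9 was by far the most abundant of the 3. It had 45.66, 115.79 and 71.18 FPKM in HF knockout, 44.31, 46.19 and 36.00 in HF floxed, 8.47, 96.87 and 94.50 in LF knockout, and 0.71, 0.43 and 0.35 in LF floxed libraries. The 3 LF floxed libraries were low and all 9 others lay above them, with LF knockout 1 between the LF floxed libraries and the rest. In estimated counts Cyp2b9 had 2196 to 5497.01 per library in HF knockout, 1641 to 1967 in HF floxed, 342 to 4460.63 in LF knockout and 17 to 27 in LF floxed livers. By FPKM it ranked 421 to 1188 among the named genes in HF knockout, 1354 to 1487 in HF floxed, 673 to 4278 in LF knockout and 9947 to 11357 in LF floxed libraries. Group means from high to low were 77.5 ± 35.5 FPKM in HF knockout, 66.6 ± 50.4 in LF knockout, 42.2 ± 5.42 in HF floxed and lastly 0.497 ± 0.189 in LF floxed libraries (SD, n = 3 each). The ranges of neighbours among the first 3 of these groups overlapped, and LF floxed did not overlap any of them.

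Cyp2b13 followed the pattern of Cyp2b9 at a lower level. It had 4.75, 12.25 and 10.84 FPKM in HF knockout, 3.77, 5.08 and 3.34 in HF floxed, and 0.19, 13.39 and 13.92 in LF knockout libraries, and it was not listed in the 3 files of LF floxed libraries, which was taken as 0. Its estimated counts were 140 to 355.99 in HF knockout, 97 to 140 in HF floxed and 5 to 397.12 in LF knockout libraries. LF knockout 1, with 5 counts, was again closer to the LF floxed libraries than its group mates were. Means were 9.28 ± 3.99 FPKM in HF knockout, 9.17 ± 7.78 in LF knockout and 4.06 ± 0.906 in HF floxed libraries (SD, n = 3 each), and these neighbours overlapped. Per length, Cyp2b13 stood at 10.4, 10.6 and 15.2% of Cyp2b9 in HF knockout, 8.51, 11.0 and 9.28% in HF floxed, and 2.24, 13.8 and 14.7% in LF knockout libraries. The share was 8.51 to 15.2% in 8 libraries, highest in HF knockout 3 and LF knockout 2 and 3, and lower in LF knockout 1. How much of it is reads of Cyp2b9 placed on the near copy was not tested.

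Cyp2b10 was close to the detection limit throughout and had another pattern. It had 0.03, 0.10 and 0 FPKM in HF knockout, 0.53, 0.57 and 0.80 in HF floxed, 0.10, 0.54 and 0.81 in LF knockout, and 0.20, 0.10 and 0.03 in LF floxed libraries. These values stood for 1, 3 and 0 counts in HF knockout, 16, 17 and 24 in HF floxed, 3, 16 and 24 in LF knockout, and 6, 3 and 1 in LF floxed libraries, all of them whole numbers. HF floxed libraries and LF knockout 2 and 3 were high, and HF knockout, LF floxed and LF knockout 1 were low. Mean levels from high to low were 0.633 ± 0.146 FPKM in HF floxed, 0.483 ± 0.358 in LF knockout, 0.11 ± 0.0854 in LF floxed and 0.0433 ± 0.0513 in HF knockout libraries (SD, n = 3 each). HF floxed lay above both LF floxed and HF knockout without overlap, and every other pair of groups overlapped. In the HF knockout libraries, where Cyp2b10 had at most 3 counts, Cyp2b9 had at least 2196, so the textbook CAR target was nearly silent in libraries in which Cyp2b9 was among the more abundant liver transcripts. Depth limits these values, since a count of 0 in a library allows up to 3 counts.

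**Figure D2:**
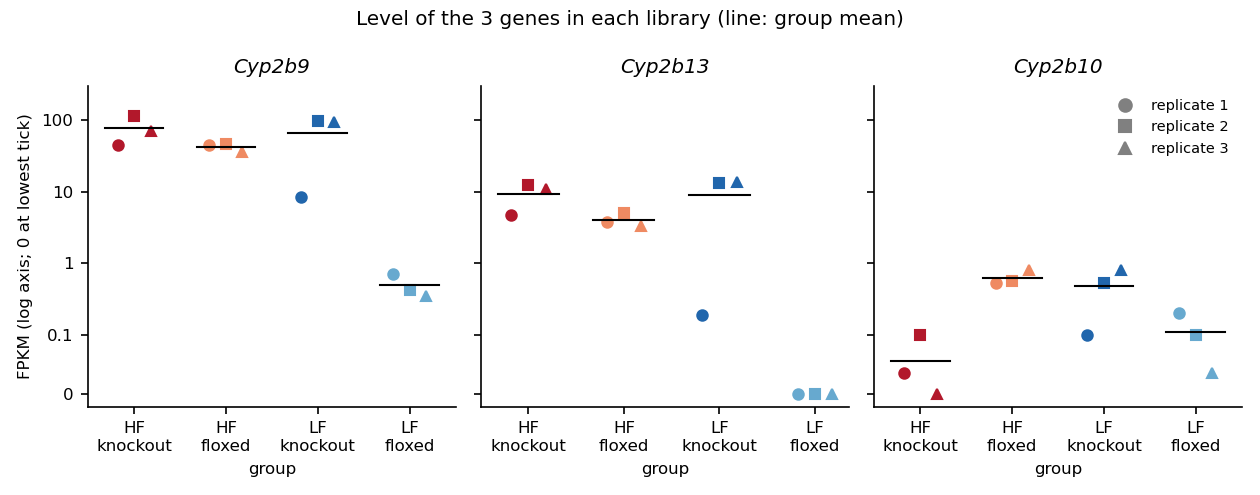
FPKM of Cyp2b9, Cyp2b13 and Cyp2b10 in each of the 12 libraries on a log axis, with libraries at 0 drawn at the lowest tick. Symbols stand for replicates 1 to 3 as numbered in the labels, and lines for group means. Cyp2b9 and Cyp2b13 are low in LF floxed libraries alone but for LF knockout 1. Cyp2b10 is low in HF knockout and LF floxed libraries and in LF knockout 1.

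Cyp2b9 and Cyp2b13 varied together over the 12 libraries, with Pearson r of 0.952 and Spearman rho of 0.965 on log2(FPKM + 1). Cyp2b10 went with neither as closely, with r of 0.426 with Cyp2b9 (rho 0.247) and 0.392 with Cyp2b13 (rho 0.316). These are descriptions over libraries that share groups and, in part, near-identical content, and reads of the near copies may be shared between the first pair.

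**Figure D3:**
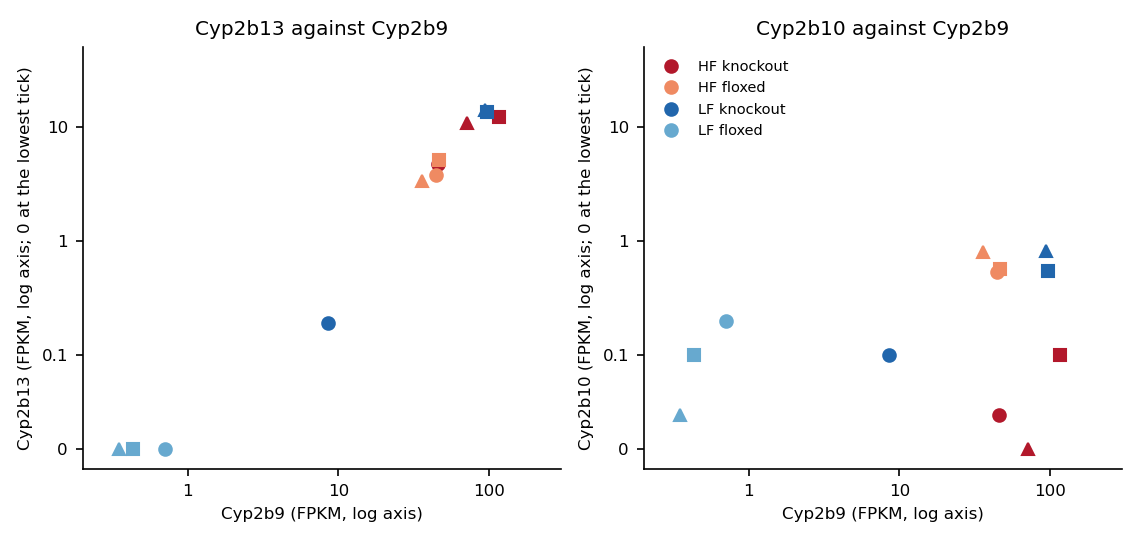
FPKM of Cyp2b13 (left) and Cyp2b10 (right) against that of Cyp2b9, 1 point per library, on log axes with 0 at the lowest tick; colours give the group and symbols the replicate as in the plot of levels by library. Cyp2b13 lies along a line with Cyp2b9, while the 3 HF knockout libraries hold high Cyp2b9 and Cyp2b10 at or below 0.10 FPKM. Cyp2b10 is also at or below 0.10 FPKM in LF floxed 2 and 3 and LF knockout 1, where Cyp2b9 is at 0.43, 0.35 and 8.47 FPKM.

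The files also give a length for each gene and library, which moves with the transcripts to which reads were assigned. Cyp2b9 has 5 transcripts in the files, 4 of them unnamed, Cyp2b13 has 2 and Cyp2b10 has 1. The length of Cyp2b10 was 1878 bases wherever it was listed. The length of Cyp2b9 was 2965.45, 2989.76 and 2937.42 bases in HF knockout, 2611.97, 2670.06 and 2814.25 in HF floxed, 2517.92, 2879.36 and 2868.20 in LF knockout, and 2398.31, 2436.61 and 3205.39 in LF floxed libraries, the last resting on 17 to 27 counts a library. HF knockout lay above HF floxed by 265.5 bases in the mean, with no overlap (two-sided exact permutation p = 0.1, the smallest that 3 against 3 libraries allow). It lay above LF knockout by 209.1 bases, also with no overlap (exact permutation p = 0.1). Adjusted over the 4 pairs of groups, both exact permutation p-values were 0.2, and the other 2 pairs overlapped. The near-identical libraries HF floxed 1 and 2, and LF knockout 2 and 3, were counted separately in these tests. Nothing is read from these permutation p-values, since the gene was selected on these data. A greater length lowers FPKM at the same count.

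Between diets in floxed mice, all 3 genes were higher on HF. The fold change from the edgeR fit, on counts scaled to library size, was 72.35 for Cyp2b9 (log2 6.18, SE 0.819) and 4.653 for Cyp2b10 (log2 2.22, SE 0.875). Cyp2b13, which had no count in LF floxed libraries, was at least 95.35-fold higher, with 3 counts over the whole group as the floor. All 3 members had HF floxed libraries above LF floxed ones without overlap, as did 23.6% of the 12587 genes tested, while 3.3% were lower without overlap. Overlap was judged on FPKM here and below, while fold changes and list medians rest on edgeR's scaled counts. These scales differ. Dnajc7, for example, averaged 14.8 FPKM in HF floxed and 15.8 in LF floxed libraries but had a log2 change of -0.37. The shares higher and lower without overlap depend on the scale. Without HF floxed 3 the log2 changes were 6.16 for Cyp2b9, 1.90 for Cyp2b10 and at least 6.60 for Cyp2b13, and without LF floxed 1 that of Cyp2b10 was 2.96. At a false discovery rate of 5%, edgeR's quasi-likelihood test called 0% of all genes. There were 1532 genes at an unadjusted p under 0.05, and DESeq2 called 254.

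Between diets in knockout mice, all 3 members overlapped, with nearly equal means for Cyp2b13 and a lower mean on HF for Cyp2b10. The HF to LF fold change was 1.239 for Cyp2b9 (log2 0.31, SE 0.632) and 1.033 for Cyp2b13 (log2 0.05, SE 0.898), and Cyp2b10 was 9.543-fold lower on HF (log2 -3.25, SE 0.986). No member had groups without overlap, against 5.59% of genes higher and 5.98% lower on HF. These values turned on single libraries. Without LF knockout 1 the log2 change was -0.22 for Cyp2b9 and -0.53 for Cyp2b13, and without HF knockout 2 it was -0.06 and -0.19. That of Cyp2b10 was -4.44 without HF knockout 2 and -2.66 without HF knockout 3. With LF knockout 1 as the lone LF knockout library, a setting chosen after seeing the data, the log2 changes were 3.34 for Cyp2b9, 5.61 for Cyp2b13 and -1.15 for Cyp2b10. Of all genes, 0% were called by edgeR, with 1534 at an unadjusted p under 0.05 and 126 called by DESeq2.

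Between genotypes on HF, Cyp2b9 and Cyp2b13 had higher means and Cyp2b10 a lower one in knockout livers. Cyp2b9 was 2.166-fold higher in knockout livers (log2 1.12, SE 0.639) and Cyp2b13 was 2.483-fold higher (log2 1.31, SE 0.922), with overlapping groups. Cyp2b10 was 12.23-fold lower in knockout livers (log2 -3.61, SE 0.981), from 4 counts in the 3 HF knockout libraries and 57 in the 3 HF floxed libraries, and was the 1 member whose groups did not overlap. Its log2 change was -4.79 without HF knockout 2 and -3.02 without HF knockout 3. Among all tested genes, 7.08% were lower and 2.25% higher in knockout without overlap. The edgeR test called 0% of genes, with 963 at an unadjusted p under 0.05 and 69 called by DESeq2.

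Between genotypes on LF, all 3 members had higher means in knockout livers. Cyp2b9 was 126.5-fold higher (log2 6.98, SE 0.845), Cyp2b13 was at least 234-fold higher against the floor of 3 counts over the group, and Cyp2b10 was 3.632-fold higher (log2 1.86, SE 0.879). Cyp2b9 and Cyp2b13 lay above LF floxed libraries without overlap, as did 16% of the genes tested (2.18% were lower), while Cyp2b10 overlapped. Without LF floxed 1 the log2 change of Cyp2b10 was 2.60. The edgeR test called 2 genes at a false discovery rate of 5% (0.0159%), Cyp2b9 and Morf4l1b. It called none when near-identical libraries were averaged to 1, and nothing is read from the call, since the gene was picked for its differences in these data. The size of the change rested on LF knockout 2 and 3. With both left out, the log2 change was 3.94 for Cyp2b9, at least 2.23 for Cyp2b13 against the same floor, and -0.25 for Cyp2b10.

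The interaction of diet and genotype is the change between diets in knockout mice minus that in floxed mice. It was -5.87 for Cyp2b9 (log2, SE 0.996), -5.47 for Cyp2b10 (SE 1.32) and at most -6.53 for Cyp2b13. Of all tested genes, 0.0159% were called for this interaction by edgeR, which were Gnai1 and Morf4l1b. Without HF knockout 2 the value of Cyp2b10 was -6.65, and without HF knockout 3 it was -4.88. With LF knockout 1 as the lone LF knockout library the values were -2.83, -3.37 and at most -0.89 in the same order.

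In whole liver, fewer cells of a type and less RNA per cell cannot be told apart. The summed FPKM of 9 hepatocyte markers was 62540 to 108300 in HF knockout, 53700 to 58440 in HF floxed, 64590 to 82780 in LF knockout and 64610 to 87930 in LF floxed libraries, and no marker was at 0 throughout a group. The 5 neutrophil markers summed to 3.28 to 387.2 FPKM in HF knockout, 3.36 to 6.78 in HF floxed, 2.36 to 3.04 in LF knockout and 1.68 to 9.88 in LF floxed libraries. The 5 Kupffer cell markers summed to 46.5 to 228.5 FPKM in HF knockout, 52.1 to 89.44 in HF floxed, 45.12 to 74.54 in LF knockout and 36.86 to 106.8 in LF floxed libraries. The part of cell type composition in the levels of the members was not tested.

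The genes around the Cyp2b members were read next from 8 lists, with 100 of their 116 genes tested. The edgeR test called none of these 100 genes in any comparison, so the following changes are directions of estimates, none of which passed in edgeR. Values are means ± SD of 3 libraries a group. Those at an unadjusted p under 0.05 numbered 20 for HF against LF in floxed, 12 in knockout, 11 for knockout against floxed on HF, and 18 on LF. DESeq2 called 6, 1, 3 and 4 of them in the same order. Among the genes named below, these were Cyp2a22, Abcc3, Cd36 and Cidea for HF against LF in floxed mice (DESeq2 adjusted p = 0.00318, 0.00201, 6.63e-07 and 0.000194) and Cyp2a4 in knockout mice (DESeq2 adjusted p = 0.0423). Between genotypes they were Gstm3, Cyp4a12b and Mup20 on HF (DESeq2 adjusted p = 0.0491, 0.0196 and 0.00975), and Abcc3, Hao2, Cd36 and Cidea on LF (DESeq2 adjusted p = 0.0123, 0.00103, 0.000185 and 0.00103). Over all tested genes, the shares at that p were 6.85% higher and 5.32% lower, 8.81% and 3.38%, 4.59% and 3.06%, and 2.58% and 2.55% in these comparisons, and 5.21% and 4.34% for the interaction.

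Of the neighbours in the Cyp2 gene cluster, 8 of 10 were in the files and 6 were tested. Their median log2 change was 0.536 for HF against LF in floxed mice (5 of 6 higher) and 0.832 for knockout against floxed on LF (5 of 6 higher), beside -0.000671 and -0.0185 over all tested genes. Cyp2a22 averaged 9.42 ± 4.83 FPKM in HF floxed and 1.35 ± 0.225 in LF floxed libraries (log2 2.48, SE 0.595, edgeR adjusted p = 0.215). It averaged 5.15 ± 1.24 FPKM in LF knockout libraries (log2 1.74 against LF floxed, SE 0.587, edgeR adjusted p = 0.929). Cyp2a5, a coumarin hydroxylase, averaged 279 ± 38.5 FPKM in LF knockout and 117 ± 52 in LF floxed libraries, without overlap (log2 1.08, edgeR adjusted p = 0.929). Cyp2a4, a steroid hydroxylase that is a near copy of Cyp2a5 and so uncertain, reached 1119.66 FPKM in HF knockout 2 and averaged 400 ± 625 in HF knockout libraries, against 7.61 ± 6.4 in HF floxed libraries (log2 5.84, SE 2.07, edgeR adjusted p = 0.599). Without HF knockout 2 that log2 change was 2.44. For HF against LF in knockout mice and for knockout against floxed on HF the list's median was 0.117 and 0.0168, beside 0.0265 and 0.0275 over all tested genes. Cyp2s1 averaged 0.523 ± 0.821 FPKM in HF knockout, 0.283 ± 0.156 in HF floxed and 0.247 ± 0.0929 in LF knockout libraries. Its change was positive only through HF knockout 2, since without it the log2 change was -2.30 between diets and -2.43 between genotypes.

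Both receptors known to drive Cyp2b10 were expressed. Nr1i3, which encodes CAR, had 27.71, 1.46 and 43.56 FPKM in HF knockout, 30.05, 27.69 and 28.30 in HF floxed, 31.04, 58.36 and 51.89 in LF knockout, and 31.17, 22.58 and 20.84 in LF floxed libraries. Its lowest value was in HF knockout 2, where Cyp2b9 was highest of all 12 libraries. That library stood apart and was also low in Cyp2e1, at 27.51 FPKM. HF knockout 1 and 3 held Nr1i3 at 27.71 FPKM or more with 1 and 0 counts of Cyp2b10. The part of Nr1i3 in the levels of the members was not tested. Between genotypes on LF Nr1i3 had a log2 difference of 0.73 (SE 0.729, edgeR adjusted p = 0.929). Nr1i2, which encodes PXR and is given here after its values were seen, had 15.8, 10.65 and 15.68 FPKM in HF knockout, 21.9, 22.77 and 16.82 in HF floxed, 24.58, 15.31 and 14.75 in LF knockout, and 16.71, 17.19 and 17.46 in LF floxed libraries. HF knockout lay below HF floxed without overlap, as did 7.08% of all tested genes (log2 -0.39, SE 0.256, edgeR adjusted p = 0.747 for Nr1i2). A link of Nr1i2 to Cyp2b10 was not tested. All 12 genes of the list of receptors, partners and cofactors were tested. Of these, 1 was higher and 11 lower for HF against LF in floxed mice (median log2 -0.23), and 3 were higher and 9 lower in knockout mice (median -0.149). On HF 8 were higher and 4 lower in knockout than in floxed mice (median 0.11), and on LF 7 were higher and 5 lower (median 0.028). These directions hold on edgeR's scaled counts. By mean FPKM, Nr1i3, Nr1i2, Rxra, Hnf4a, Nr3c1 and Hsp90ab1 were higher in HF floxed than in LF floxed libraries. The rest of the list was lower. Dnajc7, a cochaperone that keeps CAR in the cytoplasm, averaged 14.8 ± 2.65 FPKM in HF floxed and 15.8 ± 2.26 in LF floxed libraries (log2 -0.37, SE 0.162, edgeR adjusted p = 0.395). Ppargc1a, a coactivator, had a log2 change of -0.55 in the same comparison (edgeR adjusted p = 0.497), and Ppara, the fatty acid receptor, one of -0.50 for HF against LF in knockout mice (edgeR adjusted p = 0.428). Hnf4a, a master regulator of hepatocyte genes, averaged 109 ± 4.7 FPKM in HF knockout and 105 ± 3.25 in HF floxed libraries. Hsp90ab1, a chaperone of the complex that holds CAR, averaged 310 ± 42 FPKM in HF knockout, 400 ± 9.24 in LF knockout and 266 ± 25.4 in LF floxed libraries, with LF knockout apart from both (edgeR adjusted p = 0.549 between diets and 0.929 between genotypes). Por, the reductase that feeds electrons to P450 enzymes, averaged 53.6 ± 37.1 FPKM in HF knockout and 37.7 ± 6.38 in HF floxed libraries (log2 0.75, edgeR adjusted p = 0.747). Without HF knockout 1 the change of Por was -0.20.

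Of 26 targets of CAR and PXR other than the Cyp2b genes, 24 were tested. For HF against LF in floxed mice 13 were higher and 11 lower (median log2 0.148), 6 being higher at an unadjusted p under 0.05, beside 6.85% of all tested genes. In knockout mice 6 were higher and 18 lower (median -0.571), 5 being lower at that p, beside 3.38% of all genes. In knockout against floxed mice, 9 were higher and 15 lower on HF (median -0.212), and 19 were higher and 5 lower on LF (median 0.4). Abcc3, a transporter that exports conjugates to the blood, averaged 60.9 ± 15.9 FPKM in HF floxed, 52 ± 17.9 in LF knockout and 11.8 ± 3.71 in LF floxed libraries, without overlap with the last. Its log2 change was 2.09 for HF against LF in floxed mice (SE 0.486, edgeR adjusted p = 0.206) and 1.96 for knockout against floxed on LF (SE 0.484, edgeR adjusted p = 0.78). Abcb1a, a drug efflux pump, averaged 1.32 ± 0.754 FPKM in HF floxed and 0.263 ± 0.0723 in LF floxed libraries (edgeR adjusted p = 0.301), and Ugt1a1, which conjugates bilirubin, 125 ± 15.5 in LF knockout and 65.8 ± 10.4 in LF floxed libraries (edgeR adjusted p = 0.929). Of the glutathione transferases of the list, Gsta2, Gstm3 and Gstm1 had lower mean FPKM in HF knockout than in HF floxed libraries, and Gstt1 did not. Gstm1, given after its values were seen, averaged 1040 ± 467 FPKM in HF knockout and 2080 ± 449 in HF floxed libraries, without overlap. Gsta2 averaged 5.41 ± 6.35 FPKM in HF knockout and 23.3 ± 5.18 in HF floxed libraries without overlap (log2 -2.04, edgeR adjusted p = 0.6), and Gstm3 44.6 ± 34.7 and 204 ± 125 (log2 -2.10, edgeR adjusted p = 0.598). Gstm3 has close relatives among which reads may be split. Gstt1, given for contrast after its values were seen, averaged 256 ± 13.1 FPKM in HF knockout and 253 ± 21.7 in HF floxed libraries. Cyp2c55, a P450 of arachidonic acid, averaged 0.623 ± 0.146 FPKM in HF knockout and 2.1 ± 0.766 in LF knockout libraries, without overlap (log2 -1.72, SE 0.477, edgeR adjusted p = 0.344). Abcc2, the canalicular exporter of conjugates, averaged 36.6 ± 11.5 and 53.5 ± 3.62 FPKM in these groups (log2 -0.58, edgeR adjusted p = 0.344).

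Other female-biased liver genes were mostly too low to test in these libraries, with 15 of 16 in the files and 7 tested. A gene can pass that filter through the group in which it is high, so the following counts hold for the tested ones. For knockout against floxed on LF 7 of 7 were higher (median log2 1.44) and for HF against LF in floxed mice 6 of 7 (median 0.996). On HF, 4 of 7 were higher in knockout than in floxed mice (median 0.882), and for HF against LF in knockout mice 2 of 7 (median -0.386). Hao2, a peroxisomal hydroxyacid oxidase, averaged 2.04 ± 0.723 FPKM in LF knockout and 0.11 ± 0.0624 in LF floxed libraries, without overlap (log2 3.95, SE 0.828, edgeR adjusted p = 0.41). It averaged 0.743 ± 0.0961 FPKM in HF floxed libraries (log2 2.43 against LF floxed, SE 0.825, edgeR adjusted p = 0.311) and 2.03 ± 2.49 in HF knockout libraries (log2 1.44 against HF floxed, edgeR adjusted p = 0.684). Without HF knockout 3 the last change was -0.17. Prlr, the prolactin receptor, averaged 26.5 ± 8.75 FPKM in LF knockout and 9.18 ± 3.15 in LF floxed libraries, without overlap (log2 1.44, edgeR adjusted p = 0.929). Fmo2, a flavin monooxygenase, averaged 1.67 ± 0.801 FPKM in HF floxed and 0.673 ± 0.229 in LF floxed libraries (edgeR adjusted p = 0.427). Acot3 and Cyp3a41a were lower on HF in knockout mice, where Acot3, an acyl-CoA thioesterase, averaged 1.09 ± 1.45 FPKM on HF and 6.89 ± 3.97 on LF (edgeR adjusted p = 0.346) and Cyp3a41a 0.06 ± 0.052 on HF and 0.297 ± 0.0808 on LF (edgeR adjusted p = 0.417).

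Male-biased liver genes had negative medians in all 4 comparisons, with 17 of 18 tested. Between genotypes, 17 of 17 were lower in knockout livers on LF (median log2 -0.908) and 14 of 17 on HF (median -0.422). For HF against LF 16 of 17 were lower in floxed (median -0.836) and 12 of 17 in knockout mice (median -0.506). Mup20, the major urinary protein darcin, averaged 2520 ± 764 FPKM in HF knockout, 9490 ± 1600 in HF floxed and 6720 ± 697 in LF knockout libraries. HF knockout did not overlap either group, with a log2 change of -1.77 against HF floxed (SE 0.463, edgeR adjusted p = 0.598) and -1.34 against LF knockout (SE 0.458, edgeR adjusted p = 0.344). Cyp4a12b, a fatty acid hydroxylase with a near copy in Cyp4a12a and so uncertain, averaged 0.957 ± 1.13 FPKM in HF knockout, 17 ± 16.2 in HF floxed and 10.2 ± 1.49 in LF knockout libraries (edgeR adjusted p = 0.457 and 0.344 for HF knockout against each). Ugt2b38, a glucuronosyltransferase, averaged 1.17 ± 1.03 FPKM in HF floxed, 0.84 ± 0.0361 in LF knockout and 4.24 ± 3.52 in LF floxed libraries (edgeR adjusted p = 0.398 and 0.929 against LF floxed). Cyp2u1, a P450 of long-chain fatty acids, averaged 4.37 ± 2.16 FPKM in HF floxed and 9.77 ± 6.13 in LF floxed libraries (edgeR adjusted p = 0.331). Cspg5, a proteoglycan gene, averaged 0.14 ± 0.0361 FPKM in LF knockout and 0.38 ± 0.291 in LF floxed libraries (edgeR adjusted p = 0.929).

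The growth hormone pathway is known to set this sex pattern. All 16 of its listed genes were tested, with medians of 0.0296 for HF against LF in floxed mice (9 higher), -0.382 in knockout mice (5 higher), -0.197 for knockout against floxed on HF (4 higher) and 0.0828 on LF (10 higher). Stat5a, a relative of the STAT that relays growth hormone, averaged 5.16 ± 1.85 FPKM in HF floxed and 2.72 ± 0.607 in LF floxed libraries (log2 0.63, edgeR adjusted p = 0.399). Foxa2, a pioneer factor, averaged 12.5 ± 2.22 FPKM in HF knockout and 21.3 ± 7.42 in LF knockout libraries (log2 -0.70, edgeR adjusted p = 0.361), with 11.3 ± 1.93 in LF floxed libraries (edgeR adjusted p = 0.929 for LF knockout against these). Foxa1, its relative, had a log2 change of -0.89 for HF against LF in knockout mice (edgeR adjusted p = 0.346). Esr1, the estrogen receptor, averaged 2.81 ± 0.779 FPKM in LF knockout and 1.52 ± 0.372 in LF floxed libraries (log2 0.69, edgeR adjusted p = 0.929). Socs2, a feedback inhibitor induced by growth hormone, averaged 4.56 ± 2.11 FPKM in HF knockout and 9.62 ± 6.33 in HF floxed libraries (edgeR adjusted p = 0.813). For the Polycomb enzymes, the log2 change of Ezh1 was 0.19 for HF against LF in floxed mice (edgeR adjusted p = 0.621) and that of Ezh2 was -0.42 for knockout against floxed on HF (edgeR adjusted p = 0.817).

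Lipid droplet genes and targets of PPARG had the largest median of the lists for HF against LF in floxed mice. Of 10 tested genes 9 were higher (median log2 2.64), 8 of them at an unadjusted p under 0.05 beside 6.85% of all tested genes. On LF, 9 of 10 were higher in knockout than in floxed mice (median 2.19), 6 at that p beside 2.58% of all genes. For HF against LF in knockout mice 9 of 10 were lower (median -0.564), and for knockout against floxed on HF 9 of 10 were lower (median -1.12). Cidea, a protein of lipid droplet fusion, had 0, 7.89 and 2.32 FPKM in HF knockout, 68.17, 60.63 and 27.37 in HF floxed, 0.61, 47.22 and 52.43 in LF knockout, and 0, 0.11 and 0.11 in LF floxed libraries. The libraries high in Cidea were the 5 that were high in Cyp2b10, while HF knockout 1 held 45.66 FPKM of Cyp2b9 and none of Cidea. Its log2 change was 9.05 for HF against LF in floxed mice (edgeR adjusted p = 0.177), 8.50 for knockout against floxed on LF (edgeR adjusted p = 0.49), -3.86 for knockout against floxed on HF (edgeR adjusted p = 0.598) and -3.31 for HF against LF in knockout mice (edgeR adjusted p = 0.353). Cd36, a fatty acid transporter, averaged 50.7 ± 22.9 FPKM in HF floxed, 29.5 ± 11.4 in LF knockout and 2.94 ± 1.04 in LF floxed libraries. Neither group overlapped the last, with log2 changes of 3.81 (SE 0.7, edgeR adjusted p = 0.175) and 3.15 (SE 0.681, edgeR adjusted p = 0.486) against it. Mogat1, which makes diacylglycerol, averaged 1.86 ± 2.13 FPKM in HF knockout and 7.96 ± 3.23 in HF floxed libraries (log2 -2.04, edgeR adjusted p = 0.61). Fitm1, a lipid droplet protein, averaged 31.4 ± 27.3 FPKM in HF knockout and 81.9 ± 30.6 in LF knockout libraries (log2 -1.33, edgeR adjusted p = 0.478).

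Pericentral hepatocyte genes, which mark the zone of the lobule where Cyp2b10 is induced by drugs, had medians nearer 0. Of 9 tested genes 7 were lower for HF against LF in floxed mice (median log2 -0.114) and 8 in knockout mice (median -0.373), and 6 were higher in knockout than in floxed mice on HF (median 0.115) and 7 on LF (median 0.368). None reached an unadjusted p under 0.05 in these comparisons. Glul, glutamine synthetase, averaged 304 ± 254 FPKM in HF knockout and 466 ± 131 in LF knockout libraries, and Oat, an ornithine aminotransferase, 179 ± 153 and 289 ± 77.4 (edgeR adjusted p = 0.838 and 0.854). Their log2 changes of -0.51 and -0.59 rested on HF knockout 2. Without it they were 0.054 for Glul and -0.012 for Oat. Tbx3, a transcription factor, averaged 5.23 ± 0.976 FPKM in HF floxed and 7.7 ± 0.962 in LF floxed libraries without overlap (edgeR adjusted p = 0.667), and Lhpp, a phosphatase, 27.8 ± 5.81 and 33.6 ± 16.1 (edgeR adjusted p = 0.828). Rhbg, an ammonium transporter, averaged 5.18 ± 2.76 FPKM in LF knockout and 2.62 ± 1.3 in LF floxed libraries (edgeR adjusted p = 0.929), and Lgr5, a Wnt pathway receptor, 1.4 ± 0.563 and 0.883 ± 0.335 (edgeR adjusted p = 0.953). With LF knockout 1 as the lone LF knockout library both estimates were below 0. Slc1a2, a glutamate transporter, averaged 18.3 ± 17.7 FPKM in HF knockout and 16.9 ± 12 in HF floxed libraries (edgeR adjusted p = 0.979), and Tbx3 6.55 ± 5.43 and 5.23 ± 0.976 (edgeR adjusted p = 0.895). The sign of both turned on limma's log scale.

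**Figure D4:**
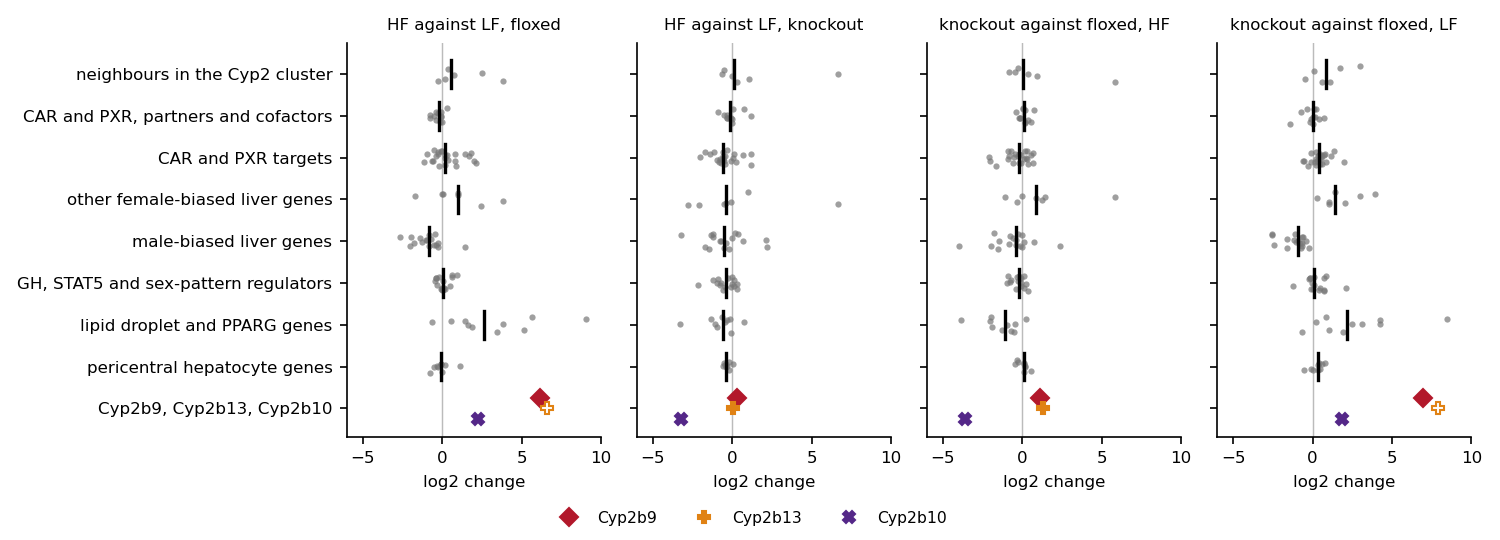
Log2 change in 4 comparisons, each point 1 tested gene of a list of related genes and each bar the median of its list, from the edgeR fit over 12 libraries; coloured symbols in the bottom row are Cyp2b9, Cyp2b13 and Cyp2b10, and an open symbol is a lower bound. Lipid droplet genes lie to the right in the first and last panels, with medians of 2.64 and 2.19, and to the left in the middle panels, while Cyp2b9 is above 0 in all panels (in the second it falls below 0 without LF knockout 1 or HF knockout 2).

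The genes whose levels correlated most with those of the members over the 12 libraries were looked up among 10012 protein-coding genes of at least 1 FPKM on average, by Pearson r of log2(FPKM + 1). For Cyp2b9 these were Antxr2 (r 0.933, rho 0.902), an anthrax toxin receptor, Fam53c (r 0.932, rho 0.909), Isg15 (r 0.931, rho 0.811), an interferon-stimulated modifier, Steap4 (r 0.921, rho 0.783), a metalloreductase, and Tcn2 (r 0.918, rho 0.713), a vitamin B12 carrier. Antxr2 had 6.63 to 12.09 FPKM in HF knockout, 6 to 7.88 in HF floxed, 3.8 to 8.09 in LF knockout and 2.47 to 3.77 in LF floxed libraries, and Isg15 had 14.55 to 17.04, 13.55 to 20.43, 6.47 to 17.01 and 5.5 to 7.14 in the same groups. For Cyp2b13 they were Ifit1 (r 0.93, rho 0.908), an interferon-induced gene, Scaf8 (r 0.92, rho 0.824), Lig3 (r 0.917, rho 0.859), a DNA ligase, Angel1 (r 0.917, rho 0.859) and again Antxr2 (r 0.913, rho 0.887). Cyp2b10 had other partners, Polr3k (r 0.951, rho 0.924), a subunit of RNA polymerase III, the heat shock genes Dnajb1 (r 0.922, rho 0.78) and Hspa1b (r 0.907, rho 0.811), Pno1 (r 0.918, rho 0.88), a ribosome assembly factor, and Prpf3 (r 0.903, rho 0.843), a splicing factor. Hspa1b, which has a near copy in Hspa1a, had 1.48 to 2.65 FPKM in HF knockout, 4.98 to 7.24 in HF floxed, 1.98 to 9.72 in LF knockout and 2.74 to 3.52 in LF floxed libraries. With near-identical libraries averaged, which left 10 points, r was 0.881 to 0.968 for these pairs. A high r does not mean a change of like size. Over the 12 libraries Cyp2b9 ran from 0.35 to 115.79 FPKM, while Fam53c ran from 2.33 to 4.1 and Steap4 from 15.12 to 83.72. Cyp2b10 ran from 0 to 0.81 FPKM and Polr3k from 3.08 to 5. The points share groups, and the genes at the top of so many candidates are a description only.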

How the data were processed

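RNA from whole mouse liver was sequenced in 12 libraries. Each library has 1 deposited file of gene values. Per the file headers, the deposited files hold expected counts, which are estimated by the authors and not scaled, and FPKM, computed by the authors from those counts, a gene length and the number of fragments. The submitters' processing notes name build mm9. The sources used here give no aligner, counter or read length. Values of genes not listed in a file were taken as 0 (3825 named genes were absent from at least 1 file), and loci without a gene name, 6.65 to 17.33% of counts, were left out. The files hold no value under 0.01 FPKM.

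Libraries held 16131506 to 16536016 estimated counts, so precision for Cyp2b10 rests on 0 to 24 counts a library. Floors of 3 counts cover counting error only. Tests used rounded counts in edgeR 4.0.16 (R 4.3.3, limma 3.58.1) with TMM factors, filterByExpr over 4 groups (12587 genes), 1 mean per group over all 12 libraries and quasi-likelihood F tests. The edgeR p-values were adjusted over all tested genes by the Benjamini-Hochberg method, with calls at a false discovery rate of 5%. The SE given with a log2 change is its absolute value divided by the square root of its F statistic. It is thus derived from the test and is not the spread of the replicates. The members and all gene lists were chosen with earlier results of these data known. Named related genes are, per list and comparison, the 2 of smallest p in the direction of the list's median. Sequences came from the RefSeq promoter table (GRCm38.p6) and GENCODE M21 transcripts, aligned with Biopython 1.88. Alternatives were DESeq2 1.42.0, its size factors, limma on log2(FPKM + 1) and log2(FPKM + 0.1), other filters, a replicate block, averaged near-identical libraries, left-out libraries and the summed counts of the 3 genes. The pipeline was tested on simulated data. Cyp2b19 and Cyp2b23 are not analysed here.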

Additional observations from a re-analysis of the deposited data

Results flagged for a closer look

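Hsp90ab1, a chaperone that holds CAR in the cytoplasm, was higher on HF in floxed mice, with a log2 change of 0.294 and no overlap, and lower on HF in knockout mice, again with no overlap. Between genotypes it was lower in knockout livers on HF, at -0.215, and higher on LF, without overlap on either diet. The edgeR adjusted p of the interaction of diet and genotype was 0.53, so the difference did not pass. For 2 lipid droplet genes the libraries of HF knockout lay below those of HF floxed while those of LF knockout lay above those of LF floxed. These were Cidea, with a log2 change of -3.86 for knockout against floxed on HF (edgeR adjusted p of the interaction 0.241), and Fitm1, with -1.27 (edgeR adjusted p of the interaction 0.43).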

How the results depend on the processing

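The members kept their sign in every alternative except HF against LF in knockout mice for Cyp2b9 and Cyp2b13, knockout against floxed on LF for Cyp2b10 with LF knockout 2 and 3 left out, and the sum of the 3 genes. Cyp2b10 could not be fitted by limma, being under its filter of 1 FPKM. Genes called for HF against LF in floxed and in knockout mice, knockout against floxed on HF and on LF, and the interaction were 254, 126, 69, 34 and 107 by DESeq2 (6, 1, 3, 4 and 5 of the related genes). With HF floxed 3 and HF knockout 1 left out, whose files are named in another form than the others, they were 158, 2, 3, 7 and 5 (9, 1, 1, 1 and 1 related genes). Limma on log2(FPKM + 1) called 0 genes for knockout against floxed on LF, and gave 4.85, 4.90 and -4.13 for Cyp2b9 (HF against LF in floxed, knockout against floxed on LF, and interaction) and 2.33, 2.67 and -1.72 for Cyp2b13. With a pseudocount of 0.1 it called 1 gene in each of the first 2 of these, and Cyp2b13 was at 5.36, 5.25 and -4.17. Without a filter 1 gene was called for HF against LF in floxed mice. Deviations from group means correlated at -0.331 to 0.404 between same-numbered libraries of different groups and at -0.551 to 0.55 between differently numbered ones. These overlapping ranges cannot settle whether the replicate numbers pair libraries. With the replicate block 0 genes were called for knockout against floxed on LF and 1 for the interaction. With near-identical libraries averaged, 0 were called in both. The 3 genes summed gave 6.06, 0.28, 1.11 and 6.89 in the 4 pairwise comparisons, in place of the values of Cyp2b10, and 6.06 for Cyp2b13 in the first.

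Leaving out LF knockout 2 and 3, chosen after seeing the data, assumes that LF knockout 1 varies like the other groups. It gave 2 calls for HF against LF in floxed mice, 1 for knockout against floxed on LF and 0 for the interaction. Cyp2b9, Cyp2b10 and Cyp2b13 were at 3.34, -1.15 and 5.61 for HF against LF in knockout mice. They were at 3.94, -0.25 and at least 2.23 for knockout against floxed on LF. For the interaction they were at -2.83, -3.37 and at most -0.89. The causes of these shifts were not tested.

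With each library left out in turn, calls were 0 to 14, 0 to 10, 0 to 14, 0 to 13 and 1 to 17 in the order above, and related genes 0 to 1 in each pairwise comparison and 0 to 3 for the interaction. The ranges for HF against LF in floxed mice were 6.04 to 6.45 for Cyp2b9, 1.78 to 2.96 for Cyp2b10 and 5.97 to 6.64 for Cyp2b13. In knockout mice they were -0.22 to 0.68, -4.44 to -2.66 and -0.53 to 0.46. For knockout against floxed they were 0.74 to 1.32, -4.79 to -3.02 and 1.07 to 1.57 on HF, and 6.60 to 7.53, 1.29 to 2.60 and 7.27 to 8.42 on LF. For the interaction they were -6.39 to -5.49, -6.65 to -4.88 and -7.06 to -5.93. The values of Cyp2b13 for HF against LF in floxed mice and for knockout against floxed on LF are lower bounds. Those for the interaction are upper bounds. Leaving out an LF floxed library spreads the floor of 3 counts over fewer libraries, so these ranges are not a spread of measured changes.

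Some named related genes turned sign. For knockout against floxed on HF, Tbx3 was at -0.18 and Slc1a2 at -0.74 by limma on log2(FPKM + 1), at -0.49 and -1.48 with 0.1, and at -0.010 and -0.099 without HF floxed 3 and HF knockout 1, where Por was at -0.24. Slc1a2 was at -0.066 with near-identical libraries averaged. Without LF knockout 2 and 3, Cidea was at 2.32 for HF against LF in knockout mice, and Rhbg at -0.48 and Lgr5 at -0.35 for knockout against floxed on LF. With each library left out, the ranges for HF against LF in knockout mice were -2.30 to 1.602 for Cyp2s1 and -1.13 to 0.054 for Glul. For knockout against floxed on HF they were -2.43 to 1.49 for Cyp2s1, -0.20 to 1.10 for Por, -0.17 to 1.88 for Hao2, -0.30 to 1.06 for Tbx3 and -0.80 to 0.88 for Slc1a2.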
